A study of Mus musculus with 9 samples.

Results

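Interferon-stimulated genes are the genes that cells switch on when an interferon reaches them. A list of 39 such genes was followed in RNA from single capillaries of the ossification front (OF) of the mouse femur, the zone below the growth plate where bone is laid down around vessels. Its members are established targets of interferon signalling and were found by their Ensembl identifiers and GRCm38 symbols. No measured value entered that look-up, but the list was chosen with earlier results of these data known. All 39 were among the 39179 genes listed in each library.

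Capillaries with the cells around them were cut by laser from frozen femur sections, and the RNA of each mouse was sequenced as 1 library. The mice carried the transgene Tg(TIE2GFP)287Sato/J, in which the Tie2 promoter drives green fluorescent protein in endothelial cells, and their origin was given as C57BL/6. The same transgene was present in both ages, and its fluorescence was used to find the vessels. The juvenile group had an age of 4 weeks (n = 5) and the adult group an age of 12 weeks (n = 4), with no further treatment. Pieces from 1 animal were pooled, and the labels do not give sex. Since the material was a mixture of cells, fewer cells of a type and less RNA per cell cannot be told apart in any value below.

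The libraries held 4856833 to 8077362 counts, and 3 counts, taken as the lower limit of detection, equalled 0.347 to 0.638 CPM (counts scaled to a common library size) depending on the library. This limit covers counting error only. All 8 endothelial marker genes were detected, with a summed level of 376 to 631 CPM in juvenile and 431 to 588 CPM in adult libraries. The 8 osteoblast marker genes were present too, summing to 92364 to 116621 CPM in juvenile and 35075 to 54007 CPM in adult libraries, so the pieces were not endothelial cells alone. Juvenile replicates 4 and 5 had Y-linked counts and only 11 and 1 counts of Xist, the other 7 libraries had 2965 to 6598 counts of Xist, and values without those replicates are given where they changed a call.

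Interferons are secreted proteins that bind receptors on the cell surface and activate JAK kinases and STAT transcription factors. Type I interferons lead to the complex ISGF3, which holds STAT2 and IRF9 and binds the interferon-stimulated response element (ISRE), whereas interferon gamma acts through STAT dimers at the gamma-activated site (GAS). The genes switched on encode sensors of foreign nucleic acids, enzymes and membrane proteins that hinder virus growth, and regulators that amplify or end the response, and a low level of many of them is kept by tonic signalling in tissue without infection.

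The promoters of 6 members are shown because they hold the DNA elements through which interferons act, or, for Isg20, because it was the member that passed the test between the ages. Each sequence is the RefSeq sequence of GRCm38.p6 from 250 bases before to 50 bases after the start of transcription (window of 300 bases), read in the direction of the gene. Capitals mark the ISRE core, GAAA, any 2 bases and GAAA again, on either strand in all but Isg20, in which they mark the GAS TTCNNNGAA.
Isg15, chr4:156200769-156201068, minus strand: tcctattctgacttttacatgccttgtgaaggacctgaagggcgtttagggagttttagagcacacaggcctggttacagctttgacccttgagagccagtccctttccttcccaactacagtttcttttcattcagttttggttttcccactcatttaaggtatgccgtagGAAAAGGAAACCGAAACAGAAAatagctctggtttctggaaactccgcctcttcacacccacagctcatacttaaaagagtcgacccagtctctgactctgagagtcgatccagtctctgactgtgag
Ifit1, chr19:34640639-34640938, plus strand: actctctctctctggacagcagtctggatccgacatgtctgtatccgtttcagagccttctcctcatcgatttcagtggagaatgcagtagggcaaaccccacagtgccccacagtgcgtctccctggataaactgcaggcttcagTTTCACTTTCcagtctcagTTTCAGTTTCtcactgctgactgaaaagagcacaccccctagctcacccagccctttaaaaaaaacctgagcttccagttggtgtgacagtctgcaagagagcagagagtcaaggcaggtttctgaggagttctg
Rsad2, chr12:26456403-26456702, minus strand: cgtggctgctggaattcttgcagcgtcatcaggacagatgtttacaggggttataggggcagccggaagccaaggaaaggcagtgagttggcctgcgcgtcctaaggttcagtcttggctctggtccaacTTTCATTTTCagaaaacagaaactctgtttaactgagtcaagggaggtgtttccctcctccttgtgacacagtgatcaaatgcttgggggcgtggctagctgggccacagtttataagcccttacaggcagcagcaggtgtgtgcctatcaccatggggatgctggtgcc
Ifitm2, chr7:140955912-140956211, minus strand: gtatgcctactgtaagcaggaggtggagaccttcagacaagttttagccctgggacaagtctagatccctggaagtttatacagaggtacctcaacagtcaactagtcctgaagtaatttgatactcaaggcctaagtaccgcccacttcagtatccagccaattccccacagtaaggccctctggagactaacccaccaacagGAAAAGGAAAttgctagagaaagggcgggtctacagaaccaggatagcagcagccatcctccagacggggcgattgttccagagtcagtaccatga
Ifitm3, chr7:141010695-141010994, minus strand: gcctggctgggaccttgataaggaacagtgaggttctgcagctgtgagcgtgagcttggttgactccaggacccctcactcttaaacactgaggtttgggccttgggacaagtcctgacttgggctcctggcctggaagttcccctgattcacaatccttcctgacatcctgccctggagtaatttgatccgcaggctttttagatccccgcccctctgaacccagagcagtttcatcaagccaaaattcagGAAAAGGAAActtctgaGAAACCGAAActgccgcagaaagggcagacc
Isg20, chr7:78913174-78913473, plus strand: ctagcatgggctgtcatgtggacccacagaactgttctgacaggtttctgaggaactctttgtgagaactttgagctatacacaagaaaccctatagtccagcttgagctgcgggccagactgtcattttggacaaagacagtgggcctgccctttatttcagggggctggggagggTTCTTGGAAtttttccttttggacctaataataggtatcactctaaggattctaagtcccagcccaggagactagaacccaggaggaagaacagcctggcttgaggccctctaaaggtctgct

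Isg15 held 3 overlapping ISRE cores, the first beginning 78 bases before the start, and Ifit1 held 2, beginning 104 and 85 bases before it and read on the opposite strand. In Rsad2 and Ifitm2 there was 1 core each, 120 and 46 bases before the start. The 2 cores of Ifitm3 began 2 and 19 bases after its start, and a GAS match began 13 bases after it and overlapped the latter core. The Isg20 window had no ISRE core and 1 GAS match 73 bases before the start, and its other RefSeq windows had neither.

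A RefSeq window was found for 30 of the 39 members. The ISRE core was present in 18 of these 30 (60%) and in 3.99% of all 27025 mouse genes with a window, and the GAS in 11 of 30 (36.7%) and in 9.55% of all genes. Counted by window of 300 bases, the shares over the genome were 3.44% and 8.3%. These matches describe letters in the window and no more. Among the members with a window that were tested between the ages, the 14 with an ISRE core had a median log2 fold change (juvenile over adult) of -0.68. The 11 without one had a median of -0.06. Without adult replicate 4 these medians were -0.10 and 0.34. Adult replicate 4 was the highest library for 6 of the 14 and for 6 of the 11. Tested members without a window are in neither group.

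Levels of the members relative to each other were compared as CPM per kilobase of exon, averaged over the 9 libraries. The highest were Ifitm3 with 561 ± 162 (SD) and Ifitm2 with 542 ± 173, whose spreads overlapped. Both encode small membrane proteins that hinder the fusion of virus with the cell. Ifi27 followed with 96.9 ± 43.4, then Ifitm1 with 62.0, Bst2 with 29.3, Isg20 with 23.6, Ifi35 with 23.4, Isg15 with 18.0 and Irf1 with 17.6. The order differed between the ages: Isg20 had a mean of 10.4 in juvenile and 40.0 in adult, against 19.0 and 28.9 for Ifi35, and Ifitm2 had 420 and 696, against 583 and 533 for Ifitm3. The remaining 30 members lay below 10 CPM per kilobase, and 11 of them below 1. At the bottom were Oas2 (0.0625), Mx1 (0.0862), Oas3 (0.114) and Ifit1 (0.163), genes that are among the most strongly inducible when interferon is given to cells. On the count scale, 22 members were above the limit of detection in every library and 7 in 5 libraries or fewer. The heat map of all members shows the bright rows of the Ifitm genes and Ifi27 in all libraries, and the dark rows of the Ifit genes, Oas1a, Oas2, Oas3 and Mx1. Of these, Ifit1, Ifit2, Oas2, Oas3 and Mx1 were highest in adult replicate 4, Oas1a in adult replicate 1 and Ifit3 in adult replicate 2.

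**Figure D1:**
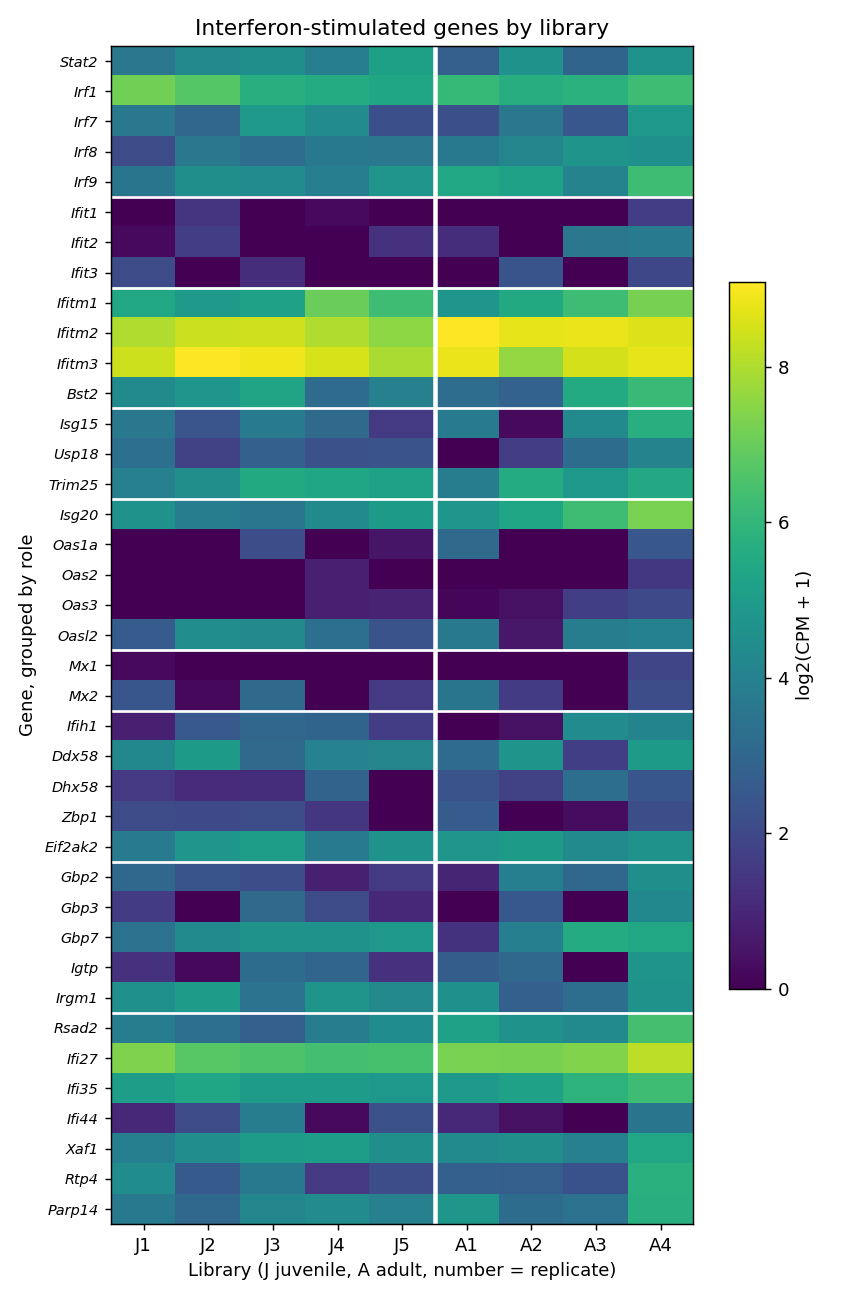
Level of each of the 39 interferon-stimulated genes (rows, grouped by role) in each library (columns, J juvenile and A adult with the replicate number) as log2(CPM + 1). In adult replicate 4 all 39 genes were above 3 counts, against 28 to 34 in the other libraries.

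Between the ages, 32 members had enough counts to be tested, and 1 of them passed, Isg20, which was higher in adult libraries (edgeR, adjusted p under 0.05). Of all 13418 genes tested, 3.88% passed in either direction and 1.89% with the higher level in adult, and 0 members passed with the higher level in juvenile, beside 1.99% of all genes. At an unadjusted p under 0.05 there were 5 members, Isg20, Ifitm2, Rsad2, Ifi27 and Irf9, all higher in adult, beside 8.76% of all genes in that direction, and 0 were higher in juvenile, beside 8.54%. Fold changes were below 0, that is lower in juvenile, for 23 of the 32 members (71.9%) and for 50.5% of all genes. The members' median log2 fold change was -0.55, in a range from -1.94 to 0.53, and that of all genes was -0.01. For the 23 members with a mean of at least 10 CPM the median was -0.31.

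This shift of the list rested on 1 library. Without adult replicate 4 the median of the 32 members was 0.03, 15 were below 0 and 17 above 0, and 0 of them were called (edgeR), with a smallest adjusted p of 0.0607, beside 2.69% of all genes called in that fit. The plot of fold changes with and without that library shows most open symbols moved to the right of the filled ones. In no member but Ifitm2 did the values of all adult libraries lie above those of all juvenile libraries, and such a separation was seen in 4.08% of all genes. The reverse order was seen in 0 members tested and in 5.07% of all genes.

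**Figure D2:**
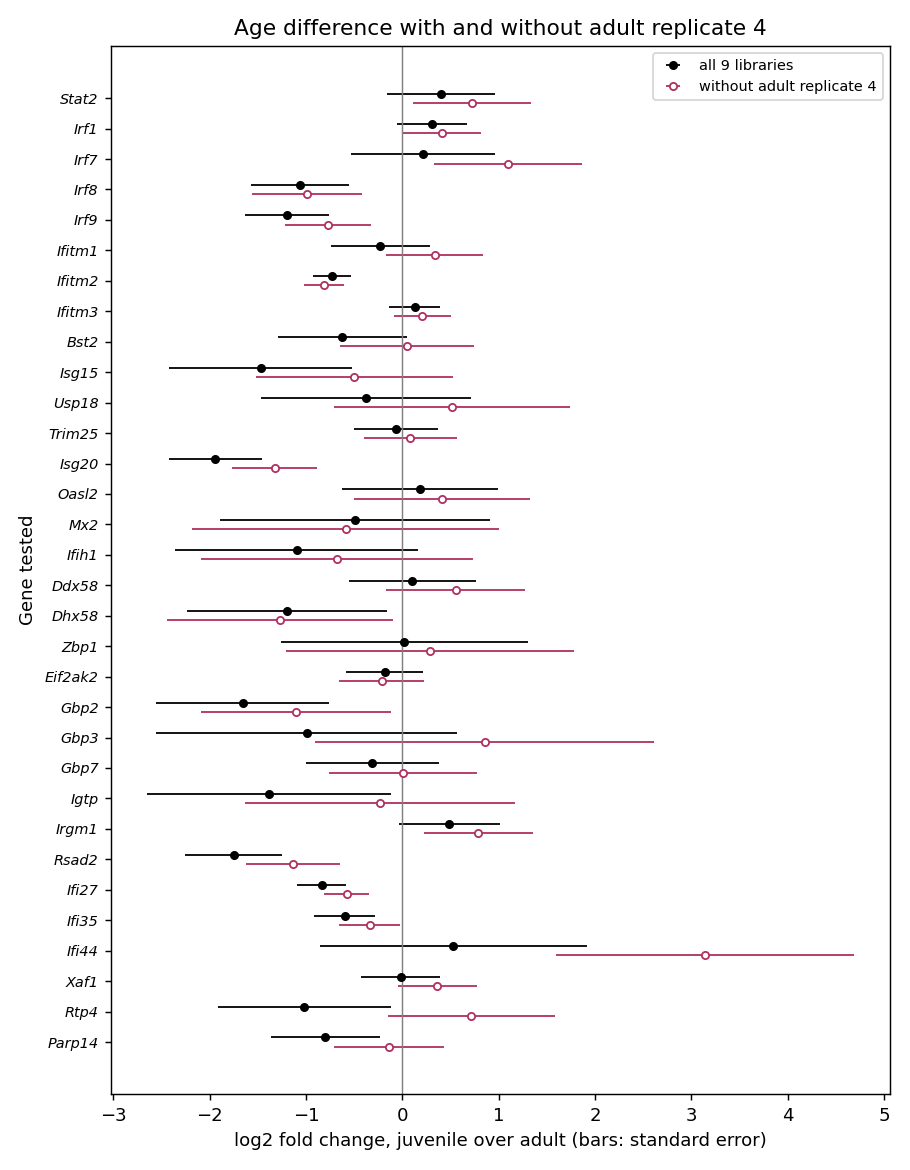
Log2 fold change, juvenile over adult, of the 32 members tested (edgeR), with standard errors, from all 9 libraries (filled) and without adult replicate 4 (open). The median moves from -0.55 to 0.03, and the members Isg20, Rsad2, Ifi27, Ifitm2 and Irf9 stay below 0 in both.

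Isg20 encodes an exonuclease that degrades single-stranded RNA. The gene (ENSMUSG00000039236) lies at chr7:78913424-78920396 on the plus strand of GRCm38. Its level was 24.1, 13, 10.9, 18.8 and 30.3 CPM in juvenile replicates 1 to 5 and 26.7, 40.6, 77.0 and 153 CPM in adult replicates 1 to 4. Adult replicate 1 lay within the juvenile range, the other adult libraries above it. The means were 19.4 ± 8.0 (SD, n = 5) and 74.4 ± 56.8 CPM (n = 4), a log2 fold change of -1.94 (SE 0.48, adjusted p = 0.0422, edgeR). The call was lost when any 1 of 7 libraries was left out, with an adjusted p by edgeR of 0.0719, 0.0959, 0.102, 0.105 and 0.0621 without juvenile replicates 1 to 5 in turn, 0.0789 without adult replicate 3 and 0.137 without adult replicate 4, and it was 0.163 without juvenile replicates 4 and 5 together. The direction was kept in each of these fits, with log2 fold changes from -2.23 to -1.33 when 1 library was left out.

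Of the OAS family, which makes oligoadenylates that activate RNase L, Oas1a, Oas2 and Oas3 had too few counts for the test, with up to 7.74, 1.75 and 3.01 CPM in any library. Of the 75-base words of Oas1a 47.6% are shared with Oas1g, so its level is uncertain. All 3 were above the limit of detection in adult replicate 4. Oasl2, an OAS-like relative, ranged from 4.03 to 20.7 CPM in juvenile and from 0.501 to 15 CPM in adult libraries, which overlapped.

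The plot of single libraries shows Isg20 beside 7 other members. In Isg20, Rsad2, Ifi27, Isg15 and Rtp4 the top point is adult replicate 4, whereas Irf1 and Eif2ak2 have a juvenile library on top.

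**Figure D3:**
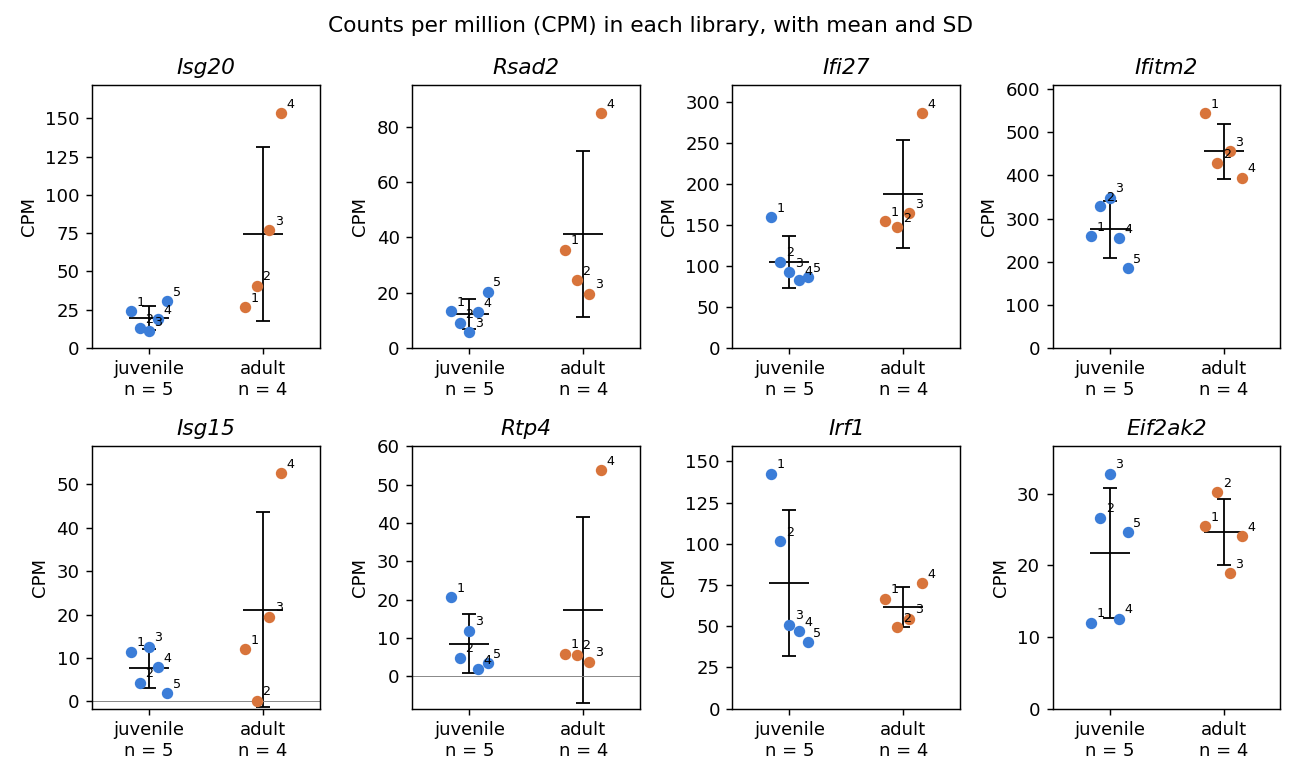
CPM of 8 members in each library, with the replicate number beside each point, the mean as a long line and the SD as bars, in 5 juvenile and 4 adult libraries. For Rtp4 adult replicate 4 stands at 53.7 CPM and the other 3 adult libraries at 3.84 to 5.90, and for Ifitm2 alone the ages do not overlap.

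Membrane proteins that restrict viruses held the member with the clearest separation of the ages. Ifitm2 (ENSMUSG00000060591, chr7:140954837-140955987, minus strand) stood at 259, 329, 349, 254 and 184 CPM in juvenile replicates 1 to 5 and at 545, 428, 456 and 395 CPM in adult replicates 1 to 4. Every adult value was above every juvenile value. The means of 275 ± 65.6 (SD, n = 5) and 456 ± 64.3 CPM (n = 4) gave a log2 fold change of -0.73 (SE 0.20), which did not pass (adjusted p = 0.0577, edgeR). Of the 75-base words of its transcript 42% also occur in transcripts of other genes, among them Gm45717 and Gm8865, so reads could have been split between these loci.

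Its neighbour Ifitm3, closely related and best known for blocking influenza virus entry, showed no such order. Its values were 340, 537, 479, 373 and 246 CPM in juvenile and 451, 195, 365 and 436 CPM in adult replicates, with means of 395 ± 115 (SD, n = 5) and 362 ± 118 CPM (n = 4). The ages overlapped widely, and the log2 fold change was 0.13 (SE 0.27, adjusted p = 0.884, edgeR), a sign that turned when juvenile replicate 2 or adult replicate 2 was left out. Ifitm1 ranged from 29.2 to 131 CPM in juvenile and from 25.8 to 148 CPM in adult libraries. Bst2, the tetherin that holds budding virus at the cell, ranged from 8.07 to 38.3 and from 6.18 to 70.3 CPM. In both, adult replicate 4 was the highest library. Of the 4 membrane proteins 0 passed (edgeR), beside 3.88% of all genes, and 1 was at an unadjusted p under 0.05, beside 17.3%. Their median log2 fold change was -0.43, and -0.60 without adult replicate 2 and 0.13 without adult replicate 4.

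Among the transcription factors that carry the interferon signal, Irf9, the DNA-binding part of ISGF3, had the smallest p. It stood at 11, 21.9, 20, 13.7 and 25.6 CPM in juvenile and at 41.4, 35.4, 15.8 and 75.7 CPM in adult replicates. Only adult replicate 3 lay within the juvenile range. The means were 18.4 ± 6.15 (SD, n = 5) and 42.1 ± 24.9 CPM (n = 4), and the log2 fold change of -1.20 (SE 0.44) did not pass (adjusted p = 0.164, edgeR). Irf1, which responds to interferon gamma and to inflammatory cytokines, had the highest CPM of this group, with 142, 102, 50.9, 46.9 and 40.3 in juvenile and 66.7, 49.3, 54.7 and 76.0 in adult replicates. Juvenile replicates 1 and 2 were above all adult libraries and juvenile replicates 4 and 5 below all of them. The log2 fold change was 0.31 (SE 0.36, adjusted p = 0.755, edgeR) and fell to -0.04 without juvenile replicate 1.

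Stat2, the other part of ISGF3 on the list, ranged from 11.2 to 34.8 CPM in juvenile and from 5.78 to 24.6 CPM in adult libraries. Irf7, the amplifier of type I interferon production, ranged from 3.60 to 28.7 and from 3.70 to 29.2 CPM. Irf8, a factor of macrophages and dendritic cells, ranged from 3.26 to 11.8 and from 11.7 to 25.4 CPM, with only the lowest adult and the highest juvenile library overlapping. The macrophage markers were higher in every adult library (summed level 1113 to 1860 CPM against 563 to 861 in juvenile), with 2 of 10 called, and their part in this result was not tested. Of the 5 factors 0 were called (edgeR), beside 3.88% of all genes, and 1 was at an unadjusted p under 0.05, beside 17.3%. Of their fold changes 3 were above 0 and 2 below. The median was 0.21, and below 0 without juvenile replicate 1, juvenile replicate 3, adult replicate 1 or adult replicate 3 (-0.04, -0.22, -0.11 and -0.08).

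The ubiquitin-like modifier Isg15 and the proteins around it were low and uneven. Isg15 (ENSMUSG00000035692, chr4:156199424-156200818, minus strand) stood at 11.4, 4.32, 12.6, 7.88 and 1.91 CPM in juvenile and at 12.0, 0.167, 19.5 and 52.6 CPM in adult replicates. The adult libraries thus held both the lowest and the highest value, and the lowest was 1 count, below the limit of detection of 3 counts. The means were 7.62 ± 4.54 (SD, n = 5) and 21.1 ± 22.5 CPM (n = 4), and the log2 fold change of -1.47 (SE 0.95) did not pass (adjusted p = 0.489, edgeR). It was -0.50 without adult replicate 4. Trim25, a ubiquitin ligase that acts on the RNA sensor RIG-I, stood at 14.5, 21.3, 45.3, 41.1 and 35.6 CPM in juvenile and 13.3, 47.3, 27.8 and 43.3 CPM in adult replicates. Its log2 fold change of -0.06 (SE 0.43, adjusted p = 0.973, edgeR) was near 0 with overlapping ages. Usp18, the protease that removes Isg15 and damps the type I receptor, ranged from 2.45 to 9.06 CPM in juvenile and from 0 to 15.8 CPM in adult libraries. The median of the 3 was -0.38, and it ran from -0.81 without adult replicate 1 to 0.08 without adult replicate 4.

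The IFIT proteins bind foreign RNA and were near the limit of detection, so none was tested. Ifit2, the highest in CPM, stood at 0.181, 2.16, 0, 0 and 1.48 CPM in juvenile and at 1.27, 0, 11.1 and 12.0 CPM in adult replicates. Adult replicates 3 and 4 alone exceeded all juvenile libraries. Ifit3 was at most 3.26 CPM in juvenile and 4.18 CPM in adult libraries, and 41.1% of its 75-base words are shared with Ifit3b. Ifit1 was above the limit in juvenile replicate 2 (1.58 CPM) and adult replicate 4 (2.13 CPM) only.

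The MX proteins are dynamin-like GTPases that trap viral components. Mx2 is annotated in GENCODE M21 as a polymorphic pseudogene, so its RNA may not give a functional protein. Mx1 was above the limit of detection in adult replicate 4 only, with 2.76 CPM. Mx2 stood at 4.35, 0.144, 7.87, 0 and 1.91 CPM in juvenile and 10.6, 2.0, 0 and 3.38 CPM in adult replicates. Each age had a library at 0, and the log2 fold change of -0.49 had a standard error of 1.40 (adjusted p = 0.920, edgeR). It was 0.65 without adult replicate 1, so the direction depended on 1 library.

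Among the sensors of foreign nucleic acids, Eif2ak2 (PKR, a kinase switched on by double-stranded RNA) was the highest in CPM and the most even. Its values were 12.0, 26.6, 32.8, 12.6 and 24.6 CPM in juvenile and 25.4, 30.2, 18.9 and 24.1 CPM in adult replicates, with means of 21.7 ± 9.13 (SD, n = 5) and 24.7 ± 4.65 CPM (n = 4). All adult values lay within the juvenile range, and the log2 fold change was -0.18 (SE 0.40, adjusted p = 0.888, edgeR). Dhx58 (LGP2, a regulator of the other helicase sensors) had the smallest p of the group, with 1.81, 1.2, 1.28, 6.38 and 0 CPM in juvenile and 4.05, 2.51, 8.66 and 4.39 CPM in adult replicates. Its log2 fold change of -1.20 (SE 1.04) did not pass (adjusted p = 0.640, edgeR), and it was -2.18 without juvenile replicate 4 and -0.79 without adult replicate 3. The RNA helicase sensors Ddx58 (RIG-I) and Ifih1 (MDA5) ranged from 2.23 to 30.1 CPM and from 0 to 19.7 CPM over all libraries, and the nucleic acid sensor Zbp1 from 0 to 5.20 CPM. For all 3 the ages overlapped. The group's median was -0.18, with 2 members above 0 and 3 below, and it ran from -0.41 (without adult replicate 2) to -0.04 (without juvenile replicate 4) when 1 library was left out, with -0.38 without juvenile replicate 3, -0.37 without adult replicate 3 and -0.21 without adult replicate 4.

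The guanylate-binding proteins and the immunity-related GTPases, which act on membranes around intracellular microbes and respond strongly to interferon gamma, had the lowest median of the groups with more than 2 members tested, -0.99 with 4 of 5 below 0. Without adult replicate 4 it was 0.01 with 2 of 5 below 0, and without juvenile replicate 3 it was -1.65. Gbp2 had the smallest p, at 7.25, 4.18, 3.41, 0.751 and 1.91 CPM in juvenile and 0.925, 14.4, 7.18 and 21.9 CPM in adult replicates. Adult replicates 1 and 3 lay below the highest juvenile value, and the log2 fold change of -1.66 (SE 0.89) did not pass (adjusted p = 0.377, edgeR). Gbp7, the highest in CPM, stood at 9.61, 19.2, 24.5, 24.6 and 27.8 CPM in juvenile and 1.5, 14.0, 46.8 and 42.3 CPM in adult replicates, a log2 fold change of -0.31 (SE 0.69, adjusted p = 0.890, edgeR). Adult replicates 1 and 2 were below the juvenile mean and adult replicates 3 and 4 above every juvenile library, and 11.3% of its 75-base words are shared with Gm43802 or Gbp3. Gbp3 and Igtp were highest in adult replicate 4, with 17.8 and 25.3 CPM, and at 0 in adult replicate 3. Irgm1 ranged from 10.0 to 31.5 CPM in juvenile and from 5.85 to 24.7 CPM in adult libraries.

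In the last group Rsad2 (viperin, an enzyme that makes an antiviral nucleotide) and Ifi27 (a small hydrophobic membrane protein) had the smallest p. Rsad2 (ENSMUSG00000020641, chr12:26442746-26456452, minus strand) stood at 13.2, 8.93, 5.75, 13 and 20.3 CPM in juvenile and 35.6, 24.5, 19.5 and 85.1 CPM in adult replicates. Adult replicate 3 was just below juvenile replicate 5, and otherwise the ages were apart. The means of 12.2 ± 5.49 (SD, n = 5) and 41.2 ± 30 CPM (n = 4) gave a log2 fold change of -1.75 (SE 0.50), which did not pass (adjusted p = 0.0744, edgeR), and one of -1.14 without adult replicate 4.

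Ifi27 (ENSMUSG00000064215, chr12:103434211-103440239, plus strand) stood at 160, 105, 92.6, 82.6 and 86.3 CPM in juvenile and 154, 147, 164 and 287 CPM in adult replicates. Juvenile replicate 1 was within the adult range and the other juvenile libraries below it. The means were 105 ± 31.6 (SD, n = 5) and 188 ± 66.2 CPM (n = 4), with a log2 fold change of -0.84 (SE 0.26, adjusted p = 0.0923, edgeR), which passed without juvenile replicate 1 (adjusted p = 0.0431, edgeR). With DESeq2, which called 4.97% of all genes as higher in adult, Ifitm2, Rsad2 and Ifi27 passed together with Isg20 (adjusted p = 0.00669, 0.00949 and 0.0268 by DESeq2 for the first 3), out of 36 members tested. With at least 10 counts in every library 21 members were left and the same 4 passed, beside 3.38% of all genes as higher in adult.

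The other 5 members of this group overlapped between the ages. Ifi35 ranged from 27.8 to 40.6 CPM in juvenile and from 28.9 to 76.4 CPM in adult libraries. Xaf1, a promoter of apoptosis, ranged from 14.3 to 32.1 and from 14.5 to 42.3 CPM, and Parp14, which attaches ADP-ribose to proteins, from 7.2 to 19.7 and from 8.35 to 52.2 CPM. Rtp4 ranged from 1.88 to 20.7 and from 3.84 to 53.7 CPM, and Ifi44 from 0.188 to 13.2 and from 0 to 11 CPM. In each of the 7 genes of the group adult replicate 4 was the highest adult library. The group's median was -0.80 with 6 of 7 below 0, and -0.13 with 4 of 7 below 0 without that library.

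Adult replicate 4 was the library in which the members were high together. It was the highest of all 9 libraries for 16 of the 32 members tested (50%), beside 13.7% of all genes, and any other library was the highest for 0 to 4 members. The 16 were Irf7, Irf9, Ifitm1, Bst2, Isg15, Usp18, Isg20, Gbp2, Gbp3, Igtp, Rsad2, Ifi27, Ifi35, Xaf1, Rtp4 and Parp14. Among the adult libraries alone it was the highest for 22 of 32 members (68.8%), beside 24.8% of all genes, and its median difference from the middle of the other adult libraries was 1.60 on the log2(CPM + 1) scale, beside 0.02 for all genes. In the other 3 adult libraries that median difference was -0.24, -0.53 and -0.46. The members' summed level was 2378 CPM in adult replicate 4 and 986 to 1580 CPM elsewhere. Ifitm2 was the exception in the opposite direction, with its lowest adult value in adult replicate 4. This library was singled out after its values were seen, and it is 1 mouse.

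A smaller shift was seen in juvenile replicate 3, the highest juvenile library for 12 of 32 members (37.5%), beside 18.1% of all genes, with a median difference of 0.43. Genes that led there were Irf7, Bst2, Isg15, Mx2, Ifih1, Gbp3, Igtp and Ifi44 among others, whereas the highest juvenile value of Rtp4 and Irf1 was in juvenile replicate 1. A second list of interferon-stimulated genes with no member in common was highest in adult replicate 4 among adults for 16 of 35 genes (45.7%) with a median difference of 0.93.

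**Figure D4:**
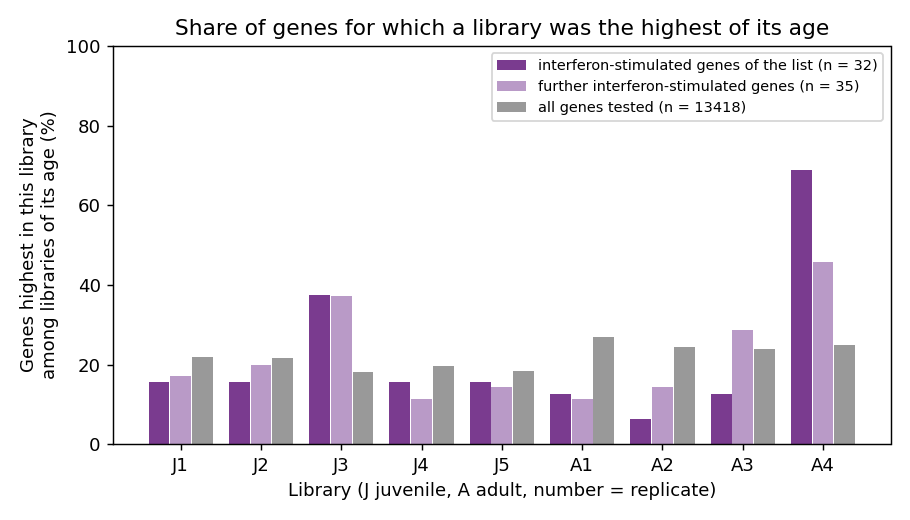
Percentage of genes for which each library was the highest of the libraries of its age, for the 32 members tested, 35 further interferon-stimulated genes and all 13418 genes tested. The bars of adult replicate 4 reach 68.8% and 45.7% for both interferon lists and 24.8% for all genes, and juvenile replicate 3 reaches 37.5% for the members.

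Blood cell markers also differed between libraries. Of the blood cell lists given here, only the megakaryocyte and erythroid sums were highest in adult replicate 4. The adipogenic stroma sum was highest there too, at 1143.5 CPM (other adult libraries 306 to 998 CPM, juvenile libraries 257 to 394 CPM). The osteoblast sum was lowest there, at 35075 CPM. The 6 megakaryocyte markers summed to 4247 CPM in adult replicate 4, to 62.4 to 605 CPM in the other adult libraries and to 13 to 26.3 CPM in juvenile libraries. Erythroid markers summed to 36998 CPM in adult replicate 4, to 4716 to 11305 CPM in the other adult and to 419 to 2555 CPM in juvenile libraries, and 8 of 8 were called as higher in adult. Neutrophil markers were at 3207 to 3815 CPM in 3 adult libraries, adult replicate 4 among them, at 113 CPM in adult replicate 2 and at 21.9 to 83.5 CPM in juvenile libraries, with 7 of 9 tested called as higher in adult. The markers of T and NK cells summed to 40.2 to 110 CPM in adult and to 0.563 to 8.21 CPM in juvenile libraries. Only 1 of these 8 genes had enough counts to be tested, and it was called as higher in adult. Those of monocytes summed to 678 to 957 and 256 to 398 CPM, with 2 of 4 tested called as higher in adult. Plasmacytoid dendritic cell markers, a list that includes the member Bst2, summed to 270 to 301 CPM in adult and 280 to 349 CPM in juvenile libraries. Only 2 of these 6 genes, Bst2 among them, had enough counts to be tested, so the sum rests on few genes. Each gene of these lists was detected in at least 1 library. The part of these cells in the members' levels was not tested.

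The genes upstream of the members were examined in the same fit. Of 14 interferon genes on the list 13 matched the files, and 12 of these had 0 counts in every library, which allows up to 0.347 to 0.638 CPM each, depending on the library. The exception was Ifnk, an epithelial type I interferon, with 0.638 CPM in juvenile replicate 3 and 0.212 CPM in juvenile replicate 5. Adult replicate 4 had 0 counts for all 13, and interferon genes outside this list were not examined.

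Of the 10 genes on the list of receptors and kinases, 9 had at least 10 counts in every library. The list held 1 gene with too few counts for the test. The highest in CPM were Jak1, the kinase shared by all interferon receptors, and both chains of the interferon gamma receptor. Jak1 stood at 93.7 to 159 CPM in juvenile and 135 to 252 CPM in adult libraries, Ifngr1 at 105 to 141 and 109 to 129 CPM, and Ifngr2 at 52.2 to 102 and 54.0 to 118 CPM. Of the 9 tested 0 were called (edgeR), beside 3.88% of all genes. At an unadjusted p under 0.05 there were 4, 2 in each direction, beside 17.3% of all genes in either direction. The median log2 fold change was 0.12, and -0.14 and -0.12 without adult replicate 2 or 3.

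The negative regulators were similar in that 0 of 9 were called (edgeR), beside 3.88% of all genes. Again 4 were at an unadjusted p under 0.05, 2 in each direction, beside 17.3% of all genes in either direction. Their median was 0.11, and it ran from -0.05 without juvenile replicate 2 to 0.32 without adult replicate 2. Stat3 stood at 119 to 193 CPM in juvenile and 104 to 208 CPM in adult libraries, the phosphatase Ptpn11 at 51.1 to 91.9 and 77.5 to 110 CPM, and the feedback inhibitor Socs3 at 22.9 to 63.8 and 28.7 to 57.9 CPM. Of 14 sensors and adaptors upstream of interferon production 0 were called (edgeR), and 1 was at an unadjusted p under 0.05. The shares of all genes were 3.88% and 17.3%. The median of these sensors and adaptors was -0.19, running from -0.43 (without adult replicate 2) to -0.10 (without adult replicate 1) when 1 library was left out. Irf3, which switches on interferon genes, was among the highest of them in CPM, at 62.4 to 91.3 CPM in juvenile and 49.3 to 105 CPM in adult libraries, beside the nucleotide hydrolase Samhd1 at 40.5 to 79.1 and 72.1 to 126 CPM and the kinase Tbk1 at 25.0 to 42.4 and 15.5 to 71.0 CPM.

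Of the further interferon-stimulated genes 35 were tested, and 2 passed, Ly6e and Slfn2, both higher in adult, beside 1.89% of all genes. In all, 5 of the 35 were at an unadjusted p under 0.05 in this direction, beside 8.76% of all genes, and 29 were below 0, beside 50.5% of all genes, with a median of -0.65 and of -0.30 without adult replicate 4. Ly6e (ENSMUSG00000022587, chr15:74955051-74959905, plus strand), a lipid-anchored surface protein that alters virus entry, stood at 108, 140, 124, 70.2 and 133 CPM in juvenile and 298, 171, 352 and 498 CPM in adult replicates. The ages did not overlap, and the log2 fold change was -1.52 (SE 0.28, adjusted p = 0.0122, edgeR). Slfn2 (ENSMUSG00000072620, chr11:83065112-83070678, plus strand), a regulator of quiescence in T cells and monocytes, stood at 14.3, 5.76, 8.94, 11.3 and 9.11 CPM in juvenile and 60.6, 36.1, 32.8 and 30.9 CPM in adult replicates. Its ages did not overlap either, adult replicate 4 was the lowest adult library, and the log2 fold change was -2.02 (SE 0.39, adjusted p = 0.0142, edgeR). Both calls held with any 1 library left out, at an adjusted p by edgeR of up to 0.0333 for Ly6e and 0.0401 for Slfn2. Both were lost without juvenile replicates 4 and 5, at 0.105 and 0.116 by edgeR, a fit that called 0.526% of all genes. The summed T and NK cell markers, of which 1 of 8 genes was tested, and the summed monocyte markers were higher in every adult library too. The part of these cells in the 2 calls was not tested.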

How the data were processed

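RNA was measured in 9 libraries, 5 juvenile and 4 adult, with 1 library per mouse. Per the methods of the study and the submitters' processing notes, cDNA was made with the SMART-Seq v4 kit, libraries with Nextera XT, and paired-end reads of 75 bases were mapped to mm10 with TopHat2 and Bowtie2. featureCounts is named among the tools. Its strand setting and the annotation release are not given in the sources used here, so antisense and overlapping genes cannot be told apart from their partners. The authors deposited whole-number counts per Ensembl gene, without normalization. Symbols, positions and exon lengths came from GENCODE M21 (GRCm38), which covered 37607 of 39179 genes and at least 99.3% of the counts of a library.

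Counts were filtered with filterByExpr, scaled by TMM and compared with the quasi-likelihood F test of edgeR 4.0.16 in R 4.3.3, without covariates. Adjusted p-values are Benjamini-Hochberg values over all 13418 genes tested, of which 520 passed at 0.05, and fold changes are juvenile over adult. CPM were counts over the TMM-scaled library size. Every library of an age was taken as a separate mouse. No 2 libraries were copies of each other (36 pairs). In simulated counts of this comparison, over 12885 genes, 10 of 96 genes changed by 1 on the log2 scale and 45 of 95 changed by 2 were called.

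The members and all other lists were chosen with earlier results of these data known. Of 108 genes on the other interferon lists, 103 matched the files. Values in every library are given for members with an adjusted p under 0.05 and, in each role group, for the member with the highest mean CPM and that with the smallest p. Of each other list the genes with an adjusted p under 0.05 and up to 3 with the highest mean CPM are named. Irf8 and the genes listed for adult replicate 4 and juvenile replicate 3 were named after their values were seen.

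Alternatives were scaling by DESeq2 size factors or by the upper quartile, DESeq2 1.42.0, limma 3.58.1 voom with quality weights, no filter, at least 10 counts per library, a block for the replicate number, no juvenile replicates 4 and 5, and each library left out in turn. CPM without TMM was added after seeing the data. Promoter windows came from RefSeq, and words of 75 bases were compared between GENCODE transcripts to find shared sequence. Python 3.11.15 and matplotlib 3.10.9 were used for the figures.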

Additional observations from a re-analysis of the deposited data

Results flagged for a closer look

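Dixon's criterion at the 95% level was applied to 96 sets of 4 or 5 libraries. The sets were the members tested and the summed marker lists, in each age. In 12 of them a library lay far from the others. The 4.8 sets expected at that level assume independent, normally distributed values. These sets share libraries and some genes, so no excess over chance is read from the 12. Of the members, Ifi27 was at 287 CPM in adult replicate 4 and at 147 to 164 CPM in the other adult libraries, and Rtp4 at 53.7 CPM there and at 3.84 to 5.90 CPM in the others. Ifi44 stood apart in both ages, with 11 CPM in adult replicate 4 (others 0 to 1.04) and 13.2 CPM in juvenile replicate 3 (others 0.188 to 3.82). Dhx58 was at 6.38 CPM in juvenile replicate 4 and at 0 to 1.81 CPM in the other juvenile libraries.

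Marker lists set apart the same or other libraries. Megakaryocyte markers summed to 4247 CPM in adult replicate 4 (others 62.4 to 605), and neutrophil markers to 113 CPM in adult replicate 2 (others 3207 to 3815) and 83.5 CPM in juvenile replicate 4 (others 21.9 to 29.5). Erythroid markers reached 2555 CPM in juvenile replicate 1 (others 419 to 1013). Adipogenic stroma markers were at 257 CPM in juvenile replicate 4 (others 356 to 394). Chondrocyte markers were at 973 CPM in juvenile replicate 3 (others 354 to 525) and at 4047 CPM in adult replicate 2 (others 583 to 946).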

How the results depend on the processing

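For the members given with a single fold change, and for Ly6e and Slfn2, 236 values over the alternatives kept direction and call, 13 reversed, 7 gained a call and 13 lost one. The 236 also include the number of members highest in adult replicate 4 without TMM, which is no fold change. All genes called numbered 1492 with DESeq2, 647 of 9847 tested with at least 10 counts in every library, 89 with the replicate block, 73 without juvenile replicates 4 and 5, and 262 to 651 with 1 library left out. Members called numbered 4 of 36 tested with DESeq2 and 4 of 21 with at least 10 counts in every library (Isg20, Ifitm2, Rsad2 and Ifi27, all higher in adult, in both), 0 with the block, 0 without juvenile replicates 4 and 5, and 0 to 1 with 1 library left out. Other interferon pathway genes called numbered 7 of 76 tested with DESeq2, 4 of 67 with voom and 4 of 45 with at least 10 counts. All of these were higher in adult, beside 4.97% of all genes, 248 of 13418 genes and 3.38% of all genes in that direction. The number called was 0 with the block, 0 without juvenile replicates 4 and 5, and 2 to 4 with 1 library left out. The members' median log2 fold change was -0.022 with the block, -0.19 with voom, -0.33 with at least 10 counts and -0.80 to 0.028 with 1 library left out, the last without adult replicate 4. Gbp7 reversed to 0.20 with voom and 0.23 with the block, and Mx2 to 0.039 without juvenile replicates 4 and 5. With 1 library left out, the log2 fold changes ran from -0.041 to 0.47 for Irf1, -0.34 to 0.14 for Trim25, -0.10 to 0.26 for Ifitm3, -1.32 to 0.65 for Mx2, -2.18 to -0.79 for Dhx58, -1.90 to -0.50 for Isg15 and -0.72 to 0.11 for Gbp7. The causes were not tested. Labels number the libraries of both ages, but same-numbered libraries are different mice and their deviations correlated by only 0.03, -0.03, 0.03 and 0.03, so the block is no pairing. Under it Isg20, Ly6e and Slfn2 were not called (adjusted p = 0.144, 0.117 and 0.0979, edgeR). Over all alternatives the adjusted p of Isg20 was 0.00224 to 0.163. Adult replicate 4 was highest for 17 members without TMM, beside 18.7% of all genes. Low members are limited by depth, since 3 counts equal up to 0.638 CPM.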
